A study of Mus musculus with 8 samples.

Results

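The genes described are 48 genes of G2 and mitosis, taken from a fixed list of names that runs from the cyclins and kinases that start mitosis to the proteins that divide the cytoplasm. The rule lists genes by name, and the probe that stands for a gene is its brightest one. The list was chosen with earlier results of these data known. Of the 48 genes, 47 were measured, among 18258 named genes and 25150 features in all, where a feature is a gene or an unnamed probe. Expression of Ccnb1 was not analysed here.

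Expression was measured on 8 dual-colour oligonucleotide arrays in 4 clonal lines of mouse embryonic stem (ES) cells. All lines and the reference derive from IB10, a subclone of the E14 ES cell line, grown with LIF on gelatin. The Taf5-kd lines carried a lentiviral pLKO-puro short hairpin against Taf5, a subunit of the general transcription factor TFIID, and the control-kd lines a control hairpin from the same kind of vector. Both kinds of line went through puromycin selection and colony picking, steps the labels do not describe for the parental reference, and each of the 2 lines per group is 1 clone. Each line was hybridised on 2 arrays with exchanged dyes, and the second channel held RNA pooled from the parental cells. The same pool served all arrays, and every level below is a log2 ratio of sample over it, so a value of 0 is the parental level. The series' design text speaks of duplicate growth of the lines, but the labels do not say which culture an array holds, so the spread between the 2 arrays of a line may be technical. The unit of the main test between groups is the line (2 lines against 2), and an alternative fit on single arrays is named where its values are given.

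The median signal of the sample channel was 123 to 186 intensity units over a background of 35 to 39.5. The small numbers of arrays and of lines (2 per group) limit the precision. Taf5 itself stood at 0.48 and 0.14 for control-kd, and -1.08 and -1.11 for Taf5-kd lines, a difference of -1.40 ± 0.13 SE or 2.65-fold lower (adjusted p = 0.0267). All 10 ES cell markers examined were above background on all 8 arrays, but so were all 7 measured trophectoderm markers. On single arrays 90.9 to 98.7% of all mouse probes were above background in the sample channel. Across features the correlation was 0.946 to 0.970 between arrays of a line, 0.741 to 0.834 between the lines of a group, and 0.166 to 0.487 between the groups. Of the 47 genes, 46 were above background in the sample channel on all 8 arrays, and Knstrn was so on all control-kd arrays and 3 of the 4 Taf5-kd arrays.

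Entry into mitosis is driven by Cdk1 bound to cyclins A and B, held back by Wee1 and released by Cdc25 phosphatases. Aurora and Polo-like kinases then build the spindle with motors such as Kif11, kinetochores attach chromosomes to it, and the spindle checkpoint delays the anaphase-promoting complex until all are attached. In mammals most of these genes are transcribed in a late wave of the cycle, through promoters that often carry a CHR element (TTTGAA), read by the MuvB complexes DREAM and B-Myb-MuvB, and CCAAT boxes, read by NF-Y. ES cells divide rapidly, and transcripts of this group are abundant in them.

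Mitotic genes changed in both directions between Taf5-kd and control-kd lines, and no called change exceeded 1.42-fold. With limma's moderated test on line means, adjusted over all features, Birc5 and Aurkb were higher in Taf5-kd lines, and Tpx2, Kif11, Kif23 and Incenp were lower. That is 6 of 47 genes (12.8%), against 7.75% of all features. The higher calls number 2 where 4.5% of all features were higher, and the lower calls number 4 where 3.25% were lower. A negative difference was measured for 34 of the 47 genes and a positive one for 13. Their median difference was -0.14 on the log2 scale, beside -0.0063 over all features. At an unadjusted p under 0.05 were 23 of the 47, where 26.7% of all features were. The differences ran from -0.76 for Bub1b to 1.05 for Pttg1, neither of which passed. In RNA of whole cultures a smaller share of cells in G2 and mitosis and less RNA of these genes per cell cannot be told apart. Leaving out 1 line leaves a single clone in its group, so such a fit cannot show whether the calls depend on that clone. Median centring of the arrays in place of loess gave 0 of 47 (limma, 6 at an unadjusted p under 0.05). Calls over all features fell steeply as well in that setting (count in the closing section), so the loss is not particular to the mitotic genes.

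**Figure D1:**
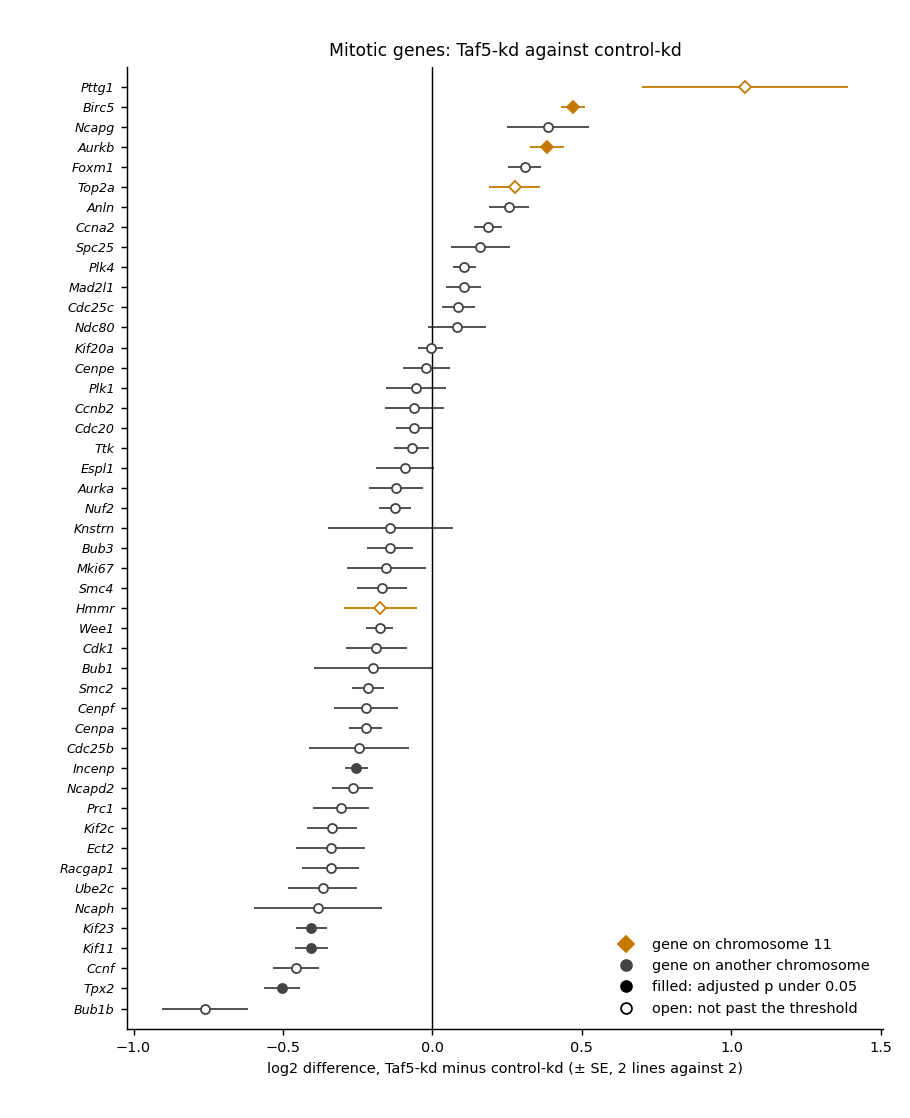
Difference between Taf5-kd and control-kd lines for each of the 47 genes, on a log2 scale on the horizontal axis. Bars give limma's moderated standard error for 2 lines against 2. Filled symbols passed an adjusted p of 0.05 and diamonds are genes on chromosome 11. Of the 47 genes, 34 lie left of 0, and both genes called higher are on chromosome 11.

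A fit on single arrays, with the line as a random block and a term for the dye, called 21 of the 47 genes, 8 higher and 13 lower, where it called 22.6% of all features (12.4% higher and 10.2% lower). The 4 arrays of one group all lay above the 4 of the other for 26 genes, 9 with Taf5-kd above and 17 with Taf5-kd below, and the groups overlapped for 21. Over all features that separation held for 36.2%, with 18.1% in each direction. In the authors' deposited table, 6 of the 47 genes had a p under 0.05 for the same comparison, where 10.3% of all mouse probes did. They were Birc5, Bub1b, Ccnf, Kif11, Kif23 and Tpx2. The authors' deposited table gives log2 differences of 0.52 for Birc5 and -0.80 for Bub1b, and the test behind its p is not given in the sources used here.

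Promoters from the RefSeq-derived table (build GRCm38.p6, 250 bases before to 50 after the annotated start) were matched for 39 of the 48 genes, and both elements were searched on both strands. Counts are of genes, and a gene with several starts counted where any of its promoters held the element. TTTGAA occurred in 28 of the 39 (71.8%), against 20.2% of 27025 genes, and CCAAT in 29 (74.4%), against 41.1%. Both occurred together in 25 (64.1%), against 8% of all. Such a match is a description of the letters, not of binding. Of the matched genes lower at the level of single arrays 11 of 11 had TTTGAA, of those higher 3 of 5, and of those that did not pass 14 of 22. Ccnb1, among the 39, had no expression value and is left out of these last counts. Of the 6 genes that passed on line means, Birc5, Kif23 and Kif11 had a promoter in the table, and their sequences are shown as those of the called genes. Capitals mark each element as it reads on the gene's strand, where TTCAAA and ATTGG are TTTGAA and CCAAT on the opposite strand. Birc5 (chr11:117848987-117849286, + strand) had neither in the window and was higher in Taf5-kd lines. In Kif23 (chr9:61946750-61947049, - strand), lower in Taf5-kd lines, ATTGG begins 7 bases before the start and TTTGAA 2 bases after it. In Kif11 (chr19:37376132-37376431, + strand), also lower, ATTGG begins 45 bases and TTCAAA 19 bases before the start.
Birc5 promoter: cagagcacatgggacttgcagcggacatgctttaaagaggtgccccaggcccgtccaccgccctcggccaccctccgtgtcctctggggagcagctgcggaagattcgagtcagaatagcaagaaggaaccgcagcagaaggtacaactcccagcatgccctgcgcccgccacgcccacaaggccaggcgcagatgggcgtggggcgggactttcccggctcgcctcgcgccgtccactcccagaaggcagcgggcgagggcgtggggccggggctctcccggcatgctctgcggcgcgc
Kif23 promoter: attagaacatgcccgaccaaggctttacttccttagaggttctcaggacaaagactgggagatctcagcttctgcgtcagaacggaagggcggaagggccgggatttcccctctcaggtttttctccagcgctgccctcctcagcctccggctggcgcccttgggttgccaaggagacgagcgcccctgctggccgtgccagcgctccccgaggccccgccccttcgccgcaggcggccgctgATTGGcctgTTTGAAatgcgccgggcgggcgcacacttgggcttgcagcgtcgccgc
Kif11 promoter: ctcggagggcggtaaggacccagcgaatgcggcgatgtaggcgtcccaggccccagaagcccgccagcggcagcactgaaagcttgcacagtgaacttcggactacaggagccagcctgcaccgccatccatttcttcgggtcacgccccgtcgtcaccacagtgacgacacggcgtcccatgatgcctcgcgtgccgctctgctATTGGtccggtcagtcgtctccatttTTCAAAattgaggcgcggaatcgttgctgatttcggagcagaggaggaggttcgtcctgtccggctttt

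None of the 8 measured mitotic cyclins, Cdk1 and its regulators passed on line means (0 of 8 with limma). At an unadjusted p under 0.05 were 4 of them and in the array-level fit 3 passed, and the counts so given for this and later roles are to be read against 26.7% and 22.6% of all features. The smallest p belonged to Ccnf, the F-box cyclin that targets centrosomal and other proteins for degradation. Its log2 ratios were 0.29 and 0.30 in control-kd line 1, 0.48 and 0.44 in control-kd line 2, -0.11 and -0.15 in Taf5-kd line 1, and -0.07 and 0.0044 in Taf5-kd line 2. All 4 control-kd arrays lay above the 4 Taf5-kd arrays, which sat close to the parental level. Here and for later genes such separation is to be read against 36.2% of all features. The difference was -0.46 ± 0.077 SE with adjusted p = 0.0534. For Cdk1, the kinase itself, the line values were 0.38 and 0.18 for control-kd, and 0.01 and 0.17 for Taf5-kd lines, and the groups' arrays overlapped. Ccna2, the cyclin of S phase and G2, was above the pool in every line at 0.20 and 0.24 for control-kd, and 0.43 and 0.38 for Taf5-kd lines, and Foxm1, a transcription factor of late-cycle genes, differed by 0.31 ± 0.055 SE with adjusted p = 0.0589. These last 3 genes, and the others outside the naming rule further on, were singled out after their values were seen.

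Of the 4 core members of the chromosomal passenger complex 2 were higher, 1 was lower and 1 did not pass. Over all features 4.5% were higher and 3.25% lower. This complex of the kinase Aurkb, the scaffold Incenp, survivin, encoded by Birc5, and borealin, encoded by Cdca8, corrects wrong attachments at the inner centromere and later acts at the cleavage furrow. For Birc5 the log2 ratios were 0.02 and -0.16 in control-kd line 1, -0.06 and -0.14 in control-kd line 2, 0.33 and 0.41 in Taf5-kd line 1, and 0.32 and 0.49 in Taf5-kd line 2. All Taf5-kd arrays were above the parental level and above all control-kd arrays, which lay near or below it. The difference was 0.47 ± 0.040 SE, or 1.39-fold higher in Taf5-kd lines (adjusted p = 0.0259).

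Aurkb gave -0.07 and -0.26 in control-kd line 1, -0.10 and -0.01 in control-kd line 2, 0.26 and 0.35 in Taf5-kd line 1, and 0.25 and 0.24 in Taf5-kd line 2. Here too the Taf5-kd arrays were the higher ones without overlap, by 0.38 ± 0.058 SE (1.3-fold, adjusted p = 0.0453). A second, dimmer probe of Aurkb read -0.07 and did not pass. Incenp ran the other way, with 0.04 and -0.06 in control-kd line 1, -0.07 and -0.0038 in control-kd line 2, -0.28 and -0.29 in Taf5-kd line 1, and -0.30 and -0.25 in Taf5-kd line 2. Its control-kd arrays were at the parental level and its Taf5-kd arrays all below it, a difference of -0.25 ± 0.038 SE (1.19-fold lower, adjusted p = 0.0442). Cdca8, from the further lists described later, differed by -0.02 ± 0.038 SE (adjusted p = 0.833). The 3 remaining kinases of the group did not pass. Plk1, the main Polo-like kinase of mitosis, stood at 0.16 and -0.06 for control-kd, and -0.07 and 0.07 for Taf5-kd lines, within 0.2 of the parental level in every line.

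Aurkb and Birc5 lie on chromosome 11, and Incenp on chromosome 19. Across the 799 brighter genes of chromosome 11 the median log2 ratio was -0.15 and -0.14 for control-kd, and 0.09 and 0.10 for Taf5-kd lines, and their median difference was 0.30. When each gene's value was taken less that median in the same line, a setting chosen after seeing the data, the difference was 0.22 for Birc5 (adjusted p = 0.0577) and 0.14 for Aurkb (adjusted p = 0.217), and neither passed. Less the median of all genes of the chromosome, the difference was 0.38 for Birc5, which still passed, and 0.30 for Aurkb, which did not.

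Among the 5 spindle checkpoint genes none passed on line means (0 with limma, 1 at an unadjusted p under 0.05 against 26.7% of features, 1 in the array-level fit against 22.6%). Bub1b encodes BubR1, the part of the checkpoint complex that holds back the anaphase-promoting complex. Its log2 ratios were 0.92 and 0.93 in control-kd line 1, 0.58 and 0.50 in control-kd line 2, -0.06 and -0.07 in Taf5-kd line 1, and -0.04 and 0.04 in Taf5-kd line 2. Both control-kd lines were above the pool, line 1 more than line 2, and both Taf5-kd lines were at the parental level. The difference was -0.76 ± 0.15 SE (1.69-fold lower), with adjusted p = 0.0653 on line means and 0.00207 in the array-level fit. Bub1, a kinase of the same kinetochore platform, had 0.52 and -0.02 for control-kd, and 0.06 and 0.05 for Taf5-kd lines. A second bright probe of Bub1 read -0.34 and -0.18 for control-kd, and -0.63 and -0.61 for Taf5-kd lines, a difference of -0.36 that did not pass, so the probes disagree on the pattern over lines. Bub3, another checkpoint protein, read -0.14 on its brightest probe and 0.34 on a second one, and neither passed. The differences of Mad2l1 and Ttk, which did not pass, were 0.10 and -0.07.

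The 4 genes of anaphase promotion and separase also held no call on line means (0 with limma, 2 at an unadjusted p under 0.05 against 26.7% of features, 2 in the array-level fit against 22.6%). Pttg1, which encodes securin, the inhibitor of separase, gave -1.09 and -1.21 in control-kd line 1, -0.22 and -0.17 in control-kd line 2, 0.35 and 0.43 in Taf5-kd line 1, and 0.36 and 0.36 in Taf5-kd line 2. The Taf5-kd lines lay within 0.1 of each other above the pool, while control-kd line 1 was far below it and line 2 slightly below. The difference of 1.05 ± 0.34 SE was the highest of the 47 genes, with adjusted p = 0.166, and the control-kd lines differed from each other by 0.95. Without control-kd line 1 it was 0.57, and without line 2 it was 1.52. Pttg1 also lies on chromosome 11.

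Ube2c, the ubiquitin-conjugating enzyme of the anaphase-promoting complex, gave 0.23 and 0.26 in control-kd line 1, 0.19 and 0.19 in control-kd line 2, -0.29 and -0.31 in Taf5-kd line 1, and 0.01 and -0.0024 in Taf5-kd line 2. Control-kd arrays were all above the Taf5-kd arrays, and Taf5-kd line 1 lay below line 2. The difference was -0.37 ± 0.12 SE (adjusted p = 0.156). Cdc20, which activates the complex, and Espl1, which is separase, differed by -0.06 and -0.09 with overlapping arrays.

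The 7 centromere and kinetochore genes gave no call (0 with limma, 1 at an unadjusted p under 0.05 against 26.7% of features, 1 in the array-level fit against 22.6%). Cenpa, the histone H3 variant that marks centromeres, gave 0.15 and 0.06 in control-kd line 1, -0.05 and 0.06 in control-kd line 2, -0.14 and -0.16 in Taf5-kd line 1, and -0.18 and -0.18 in Taf5-kd line 2. Its Taf5-kd arrays were the lower ones without overlap, by -0.22 ± 0.054 SE (adjusted p = 0.0969), and a dimmer probe read 0.03. The microtubule-binding Ndc80 complex showed no common direction, since Nuf2 differed by -0.13, Ndc80 by 0.08 and Spc25 by 0.16.

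Spindle motors and assembly factors had the most negative median of the 8 roles, -0.37, with all 4 genes below 0 and 2 of them called. The called genes were lower, as were 3.25% of all features. Kif11, the tetrameric kinesin that pushes the spindle poles apart, gave 0.40 and 0.45 in control-kd line 1, 0.33 and 0.31 in control-kd line 2, -0.03 and -0.07 in Taf5-kd line 1, and -0.03 and -0.01 in Taf5-kd line 2. Both control-kd lines were above the pool and both Taf5-kd lines at its level, without overlap. The difference was -0.41 ± 0.054 SE (1.32-fold lower, adjusted p = 0.0393). Other probes of Kif11 read -0.35 and -0.13 and did not pass.

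Tpx2, which activates Aurora A and nucleates spindle microtubules, gave 0.20 and 0.13 in control-kd line 1, 0.19 and 0.23 in control-kd line 2, -0.36 and -0.39 in Taf5-kd line 1, and -0.29 and -0.22 in Taf5-kd line 2. Its control-kd arrays lay above the pool and its Taf5-kd arrays below it. The difference was -0.50 ± 0.060 SE (1.42-fold lower, adjusted p = 0.0338). Kif2c, a microtubule-depolymerising kinesin of the centromere, differed by -0.34 ± 0.082 SE without passing (adjusted p = 0.0997), and Hmmr, a microtubule-binding spindle protein encoded on chromosome 11, by -0.17.

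Condensin and chromosome genes gave no call among 7 (0 with limma, 4 at an unadjusted p under 0.05 against 26.7% of features, 3 in the array-level fit against 22.6%). The smallest p belonged to Smc2, an ATPase of condensin, at 0.27 and 0.14 in control-kd line 1, 0.21 and 0.21 in control-kd line 2, -0.04 and -0.09 in Taf5-kd line 1, and -0.04 and 0.13 in Taf5-kd line 2. The 4 control-kd arrays were above all Taf5-kd arrays, narrowly so for 1 array of Taf5-kd line 2, and the difference was -0.22 ± 0.054 SE (adjusted p = 0.103). Subunits of condensin I went both ways, with Ncapg at 0.39, Ncaph at -0.38 and Ncapd2 at -0.27. Top2a, the topoisomerase that separates sister DNA, is on chromosome 11 and differed by 0.27.

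Of the 6 cytokinesis genes 5 had a negative difference, with a median of -0.32. Kif23 was called lower, as were 3.25% of all features. Kif23 is the motor subunit of centralspindlin, which bundles midzone microtubules. Its log2 ratios were 0.36 and 0.25 in control-kd line 1, 0.26 and 0.24 in control-kd line 2, -0.09 and -0.08 in Taf5-kd line 1, and -0.23 and -0.11 in Taf5-kd line 2. Control-kd arrays were all above the pool and Taf5-kd arrays all below it. The difference was -0.41 ± 0.051 SE (1.32-fold lower, adjusted p = 0.0369). A second probe read -0.40 and passed, and another, dimmer one read 0.02. Racgap1, the partner of Kif23 in centralspindlin, gave -0.34, the midzone bundler Prc1 -0.31 and Ect2, the exchange factor for RhoA, -0.34. Their adjusted p on line means were 0.128, 0.149 and 0.171. The groups did not overlap for these genes, as for 36.2% of all features. Over all roles 28 genes had more than 1 probe, 10 of them had a probe of the opposite sign, and no opposite probe passed. Apart from those of Bub3 and Cenpe (mean log2 intensity 10.1 and 8.07), the opposite probes were dim, at 6.38 to 7.07. Their differences ran from only -0.07 to 0.06, so their sign and their failure to pass say little.

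**Figure D2:**
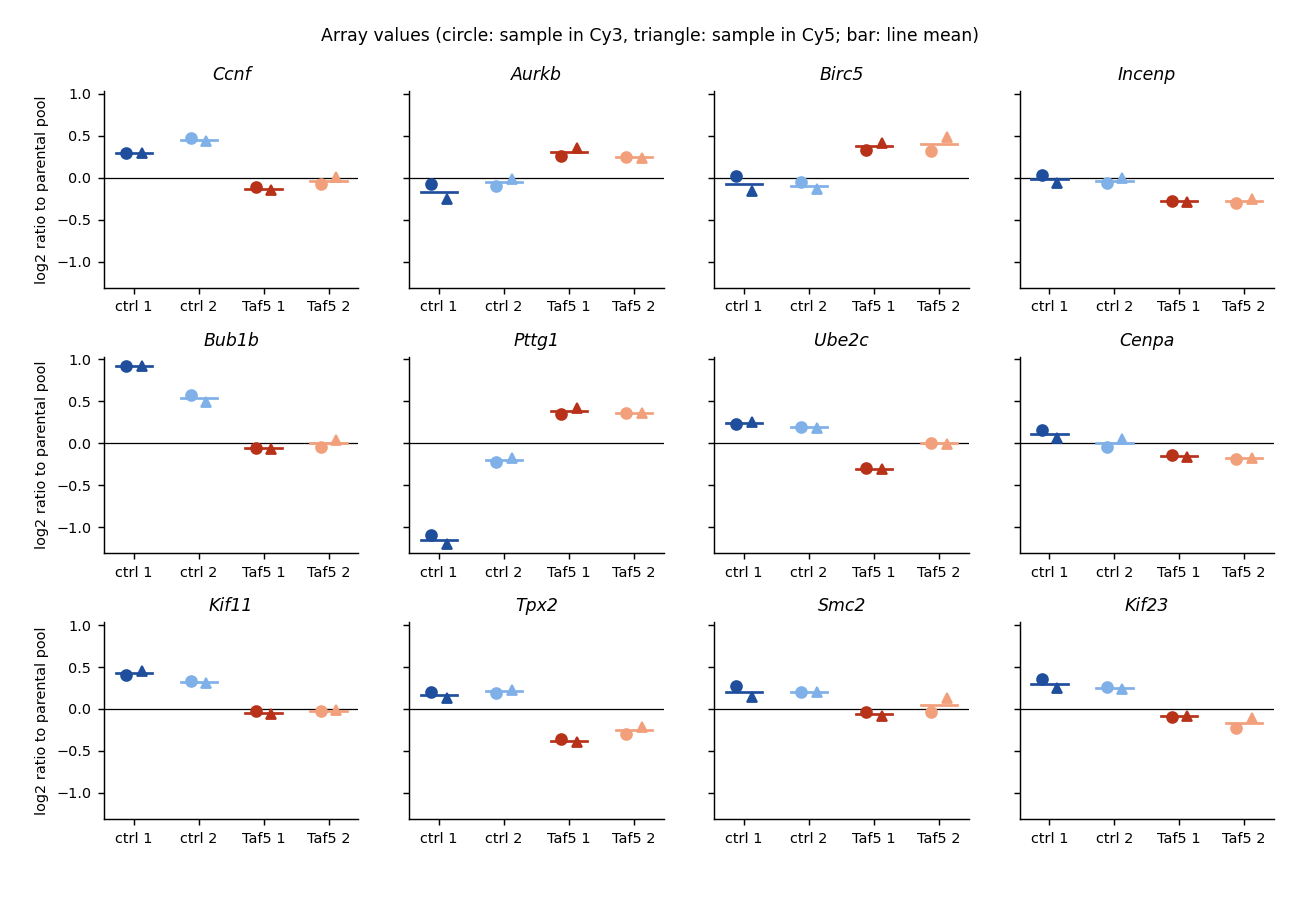
Log2 ratio to the parental pool (vertical axis) on each array for the 12 genes named by rule, with circles for the sample in Cy3, triangles for the sample in Cy5, bars for line means, and the 4 lines along the horizontal axis. Kif11, Kif23, Ccnf and Bub1b sit above 0 in the control-kd lines and near 0 in the Taf5-kd lines, while Birc5 and Aurkb sit above 0 in the Taf5-kd lines.

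Against the parental pool the control-kd lines had a median of 0.18 over the mitotic genes, with 38 of 47 above 0, and the medians of the lines were 0.20 and 0.14. In the Taf5-kd lines the median was 0.02, with 26 genes above 0 and line medians of -0.01 and 0.05. Over all features both medians were within 0.01 of 0. The spread of the pool itself is not in these tests, and both comparisons share it. Markers of cell state also differed from the pool in control-kd lines, where 5 of 7 trophectoderm markers were lower (the lowest at -3.98), 4 of 8 fibroblast markers lower (the lowest at -3.09) and 4 of 10 ES cell markers higher. In Taf5-kd lines 1 trophectoderm marker was higher, 1 fibroblast marker lower and 3 ES cell markers lower, and no primitive endoderm marker passed in either group (limma, 1 unadjusted in each). Of all features, 13% were lower and 8.38% higher in control-kd lines, and 10.7% lower and 7.74% higher in Taf5-kd lines. The part of these markers in the mitotic values was not tested.

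In control-kd lines 12 genes were higher than in the pool and 3 lower, together 31.9% of 47, where 21.4% of all features passed (8.38% higher and 13% lower). The 12 were Ccna2, Ccnf, Cdc25c, Wee1, Aurka, Bub1b, Ttk, Kif11, Kif2c, Smc2, Kif20a and Kif23. In Taf5-kd lines 8 were higher and 5 lower, together 27.7%, where 18.4% of all features passed (7.74% higher and 10.7% lower). The 8 were Ccna2, Cdc25c, Aurkb, Birc5, Ttk, Spc25, Top2a and Kif20a, and the 5 lower were Incenp, Tpx2, Ncapd2, Mki67 and Anln. In the array-level fit 28 and 20 genes passed against the pool (24 higher and 4 lower, 13 higher and 7 lower), where 32.8% and 31.2% of all features did (14% higher and 18.8% lower, 14% higher and 17.2% lower).

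The genes that passed between the groups are set side by side here by their difference from the pool. Kif11 was 0.37 ± 0.039 SE above the pool in control-kd lines (adjusted p = 0.0136) and at -0.03 ± 0.039 SE in Taf5-kd lines (adjusted p = 0.606). For Kif23 the values were 0.28 ± 0.036 SE (adjusted p = 0.0195) and -0.13 ± 0.036 SE (adjusted p = 0.0939). Birc5 had -0.08 ± 0.028 SE (adjusted p = 0.126) and 0.39 ± 0.028 SE (adjusted p = 0.0106), and Incenp -0.02 ± 0.027 SE (adjusted p = 0.598) and -0.28 ± 0.027 SE (adjusted p = 0.0143). Aurkb stood at -0.11 ± 0.041 SE (adjusted p = 0.153) and 0.27 ± 0.041 SE (adjusted p = 0.0282). For Tpx2, whose control-kd arrays were all above the pool and whose Taf5-kd arrays were all below it, the values were 0.19 ± 0.042 SE (adjusted p = 0.0538) and -0.32 ± 0.042 SE (adjusted p = 0.0227).

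Mki67 and Anln were below the pool in all 4 lines. The log2 ratio of Mki67, the proliferation antigen that coats mitotic chromosomes, was -0.65 and -0.98 for control-kd, and -0.90 and -1.03 for Taf5-kd lines. Anln, the anillin scaffold of the contractile ring, had -0.68 and -0.83 for control-kd, and -0.49 and -0.51 for Taf5-kd lines. Both passed against the pool in each group, and neither passed between the groups (adjusted p = 0.556 and 0.11). Ccna2, Cdc25c, Ttk and Kif20a were above the pool in both groups.

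**Figure D3:**
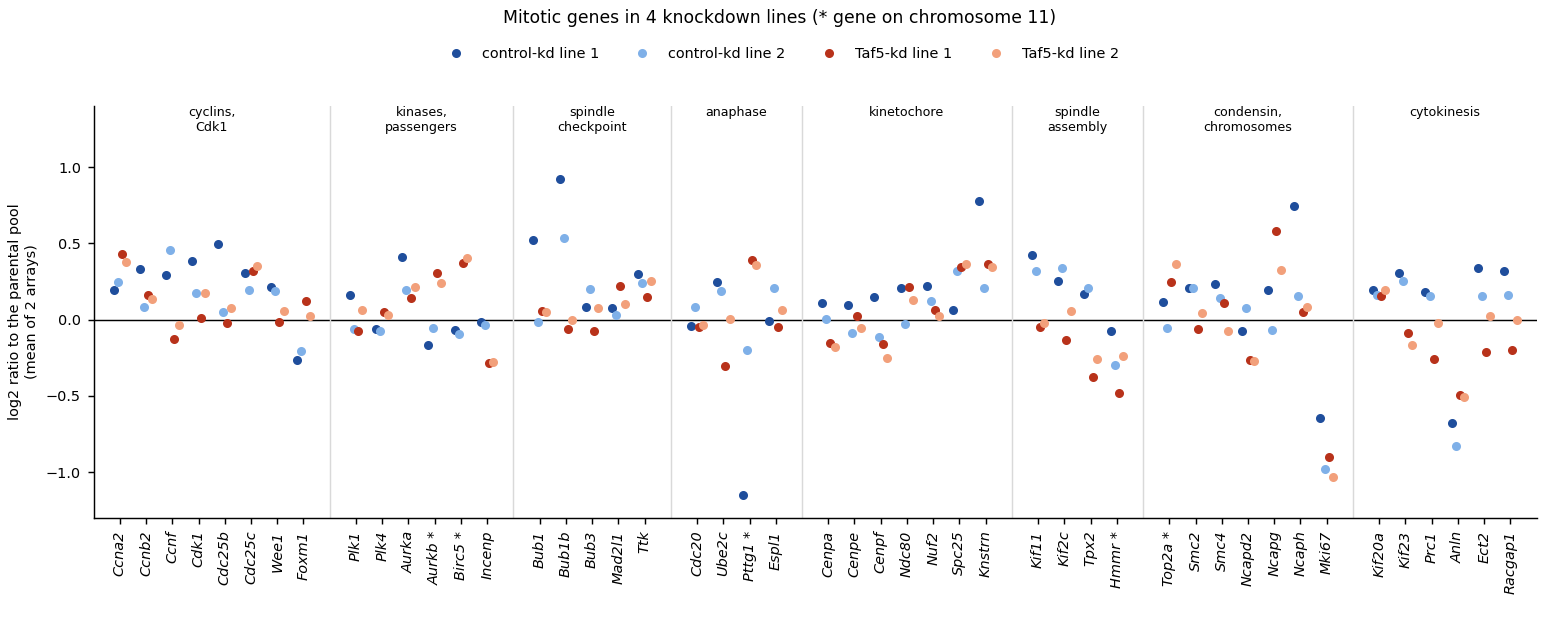
Mean log2 ratio to the parental pool over the 2 arrays of each line (vertical axis) for the 47 genes in order of role along the horizontal axis, with control-kd lines in blue and Taf5-kd lines in red. Control-kd points lie mostly above 0, Mki67 and Anln lie below 0 in all 4 lines, and Pttg1 of control-kd line 1 is the lowest point at -1.15.

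Clones of the same group differed from each other in some of these genes. A fit with 1 mean per line called 15 of 47 genes between the control-kd lines (31.9%, where 13.4% of all features passed, 6.66% higher in line 1 and 6.76% lower), and 6 of 47 between the Taf5-kd lines (12.8%, where 13.6% passed, 9.49% higher in line 1 and 4.06% lower). The difference between these counts was not tested. In control-kd line 1, 12 genes were higher than in line 2, with Ncaph at 0.59 ± 0.048 SE, Knstrn at 0.57 ± 0.069 SE, Bub1 at 0.54 ± 0.047 SE and the Cdk1-activating phosphatase Cdc25b at 0.44 ± 0.052 SE. For Bub1 the second bright probe ran the other way, being lower in line 1 at the values given above. Lower in line 1 were Pttg1 at -0.95 ± 0.055 SE, Spc25 and Espl1. Between Taf5-kd lines the largest of the called differences was that of Ube2c, at -0.30 ± 0.043 SE. Between the same control-kd lines 6 of 8 primitive endoderm markers were lower in line 1, with a median of -0.88 over the list, and 5 of 10 ES cell markers passed, 2 higher and 3 lower. Between the Taf5-kd lines 5 of 10 ES cell markers were lower in line 1 and 4 of 7 trophectoderm markers higher, and of 8 primitive endoderm and 8 fibroblast markers 4 each passed, 1 higher and 3 lower. The part of these markers in the mitotic differences between clones was not tested. The tests rest on the 2 arrays of each line and compare clones, not conditions. Without the dye term 2 and 0 genes passed, and calls over all features were not counted for that fit.

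**Figure D4:**
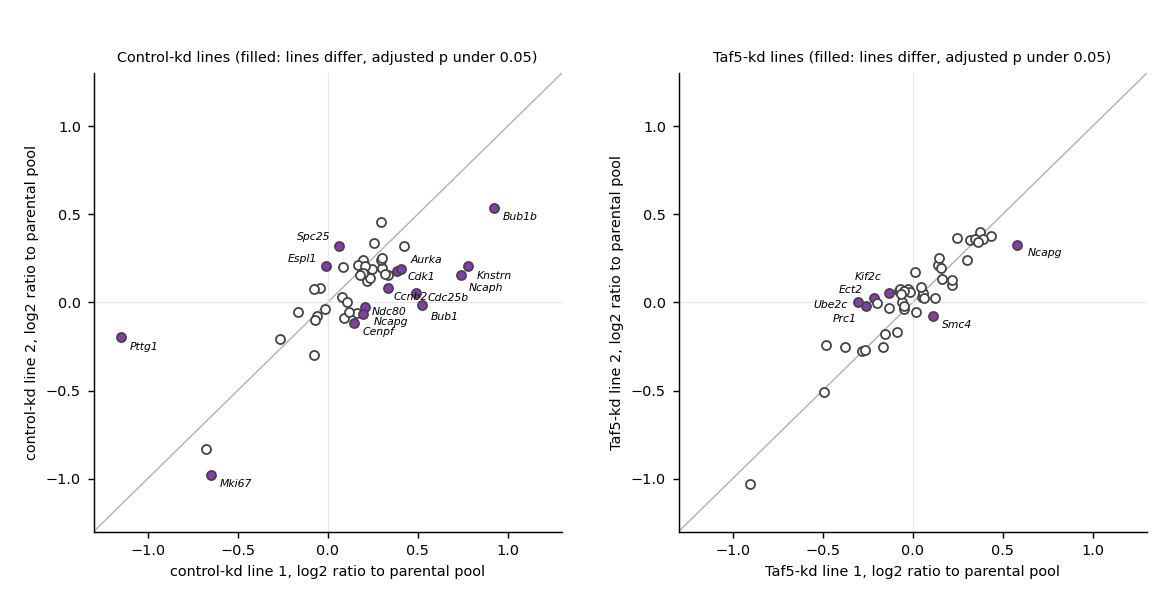
Log2 ratio to the parental pool of the 47 genes in line 1 (horizontal axis) against line 2 (vertical axis), for the control-kd lines on the left and the Taf5-kd lines on the right, with the grey line marking equality and filled points the genes that differed between the lines. Of the 47 genes 15 are filled on the left and 6 on the right, and Pttg1 lies farthest from equality on the left.

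Further genes of mitosis and cell cycle control outside the 48, taken from 7 lists, gave 8 higher and 11 lower of 131 measured (6.11% and 8.4%). Each count below is to be read against the 4.5% and 3.25% of all features. Of 15 subunits and regulators of the anaphase-promoting complex 3 were higher and 1 lower. The 3 were Cdc16 at 0.81 ± 0.054 SE and Anapc10 at 0.71 ± 0.066 SE, both on chromosome 8, and Cdc27 at 0.61 ± 0.057 SE on chromosome 11. Among 11 cohesin genes 2 were lower, namely the release factor Wapl at -0.57 ± 0.054 SE and the cohesin ATPase Smc3 at -0.42 ± 0.049 SE, and 9 of the 11 had a negative difference.

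Of 34 other spindle, motor and centrosome genes 2 were higher and 5 lower. Cep55, an abscission factor, had the largest difference of that list, with 0.40 and 0.48 for control-kd, and -0.66 and -0.58 for Taf5-kd lines and a difference of -1.06 ± 0.054 SE (adjusted p = 0.0241). Its Taf5-kd lines were below the pool and its control-kd lines above it. Gamma-tubulin, encoded by Tubg1 on chromosome 11, was higher by 0.73 ± 0.053 SE, and the centrosome protein Cep192 lower by -0.64 ± 0.060 SE. Of 12 other genes of condensin, the passenger complex and mitotic regulation 2 were lower. They were Ensa, whose product restrains the phosphatase PP2A-B55 in mitosis, at -1.14 ± 0.12 SE, and Ncapd3 of condensin II at -0.64 ± 0.060 SE.

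Other kinetochore and centromere genes gave 2 higher of 31, Spdl1 at 0.80 ± 0.078 SE and Mis12 at 0.66 ± 0.094 SE, both on chromosome 11. Among 11 genes of the DREAM and B-Myb complexes 1 was higher, Tfdp1, the dimer partner of E2F, at 0.80 ± 0.040 SE on chromosome 8. Of 17 genes of the G2 checkpoint and p53 targets 1 was lower, the checkpoint kinase Chek2 at -0.36 ± 0.047 SE.

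On line means, calls in the 2 directions fell on different chromosomes. The 48 and the further lists together held 178 measured genes. Of the 24 on chromosomes 8 and 11, 10 were higher and 0 lower, and of the 154 on other chromosomes 0 were higher and 15 lower. Among all located genes, 20.1% of 2335 on chromosomes 8 and 11 were higher and 1.07% lower, while on the other chromosomes 3.29% of 15872 were higher and 3.88% lower. In the array-level fit the split was partial. It called 19 of the 24 higher and 1 lower, and 13 of the 154 higher and 48 lower. Among all located genes it called 898 of 2335 higher and 84 lower, and 1860 of 15872 higher and 1916 lower. The brighter genes of chromosome 8 had a median difference of 0.36. Counted in the 42 genes of the 48-gene list outside these chromosomes, 4 were lower and 0 higher on line means, with a median of -0.16. At array level 13 of the 42 were lower and 4 higher. With the genes of chromosomes 8 and 11 left out before adjustment, a setting chosen after seeing the data, Kif11, Kif23 and Tpx2 still passed and Incenp did not (adjusted p = 0.0537). Chromosome copy number was not analysed here.

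**Figure D5:**
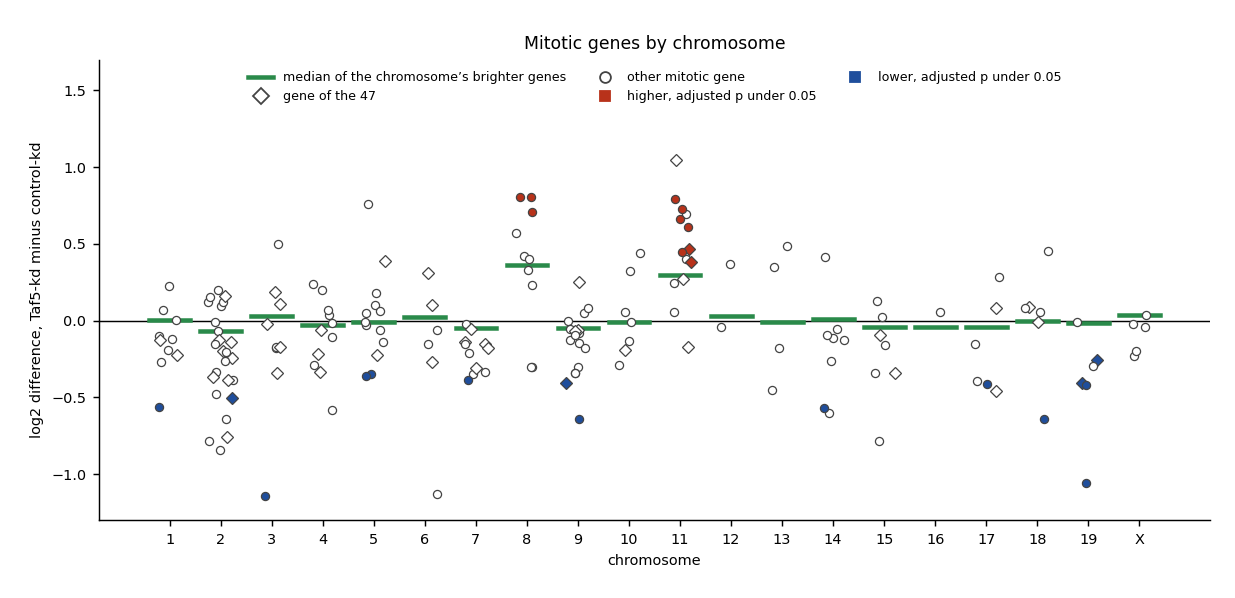
Log2 difference between Taf5-kd and control-kd lines (vertical axis) of the genes of all lists by chromosome (horizontal axis). Diamonds are the 47 genes, circles the other lists, and filled symbols an adjusted p under 0.05 on line means. Green bars give the median of the brighter genes of each chromosome. All 10 filled red points are on chromosomes 8 and 11, where the bars stand at 0.36 and 0.30, and all 15 filled blue points are on other chromosomes.

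Markers of cell state also differed between the groups. Their counts are to be read against 3.25% lower, 4.5% higher and 26.7% at an unadjusted p under 0.05 among all features. Of 10 ES cell markers 3 were lower in Taf5-kd lines, Esrrb by -1.56 ± 0.16 SE, Klf4 by -1.21 ± 0.10 SE and Fgf4 by -0.82 ± 0.053 SE, and the summed level of the list over the pool was 1.45 to 1.49 on control-kd and 0.676 to 1.10 on Taf5-kd arrays. Of 7 trophectoderm markers 2 were higher, Cdx2 by 2.61 ± 0.31 SE and Gata3 by 0.32 ± 0.039 SE, with a summed level of 0.156 to 0.195 on control-kd and 0.312 to 0.781 on Taf5-kd arrays. Neither 8 primitive endoderm nor 8 fibroblast markers held a call with limma, with 0 and 2 at an unadjusted p under 0.05. Their summed levels were 0.469 to 1.09 and 0.478 to 0.583 on control-kd arrays, and 0.568 to 0.622 and 0.554 to 0.795 on Taf5-kd arrays. No marker was below background on every array. Of 8 genes of quiescence and cell cycle exit, Gas1 was higher by 0.53 ± 0.065 SE and 7 did not pass, among them the Cdk inhibitor Cdkn1a at 0.29. The part of these markers in the mitotic differences was not tested.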

How the data were processed

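Per the file headers, the deposited scanner tables hold the mean pixel intensity and local background of both dyes for 45220 spots. The authors' deposited processed table holds log2 ratios of sample over parental pool, and their comparison table log2 differences with a p-value. How these were normalized and tested is not given in the sources used here.

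From the intensities, background was corrected by normexp (offset 50) and each array was loess-normalized over 41174 mouse probes (limma 3.58.1, R 4.3.3). Control spots had weight 0 and no scaling between arrays was done. Ratios were turned to sample over pool by the labelled dyes. A probe was kept if it exceeded background by 2 SDs, in one channel or the other, on 4 or more of the 8 arrays, and the brightest probe stood for a gene. Platform symbols were updated through RefSeq synonyms (GRCm38.p6, also the source of chromosomes and promoters). Cdk1 and Knstrn were found under older symbols.

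The main test was limma's lmFit and eBayes on 4 line means, two-sided, Benjamini-Hochberg adjusted over 25150 features, threshold 0.05. Dyes cancel within a line. Line against line used all 8 arrays with a dye term. p-values between groups set the difference against the spread between the 2 clones of a group, moderated by limma with the spread over all features. The SE values are moderated in the same way, so neither is the spread of the clones alone. The array-level alternative took the line as a random block (duplicateCorrelation 0.441) with the array number as a block. That number is the dye orientation per the labels. After removing line means, arrays of the same number correlated at 0.700 to 0.829, so pairing by number is pairing by dye. "Brighter" genes are above the median intensity of all located genes. A summed level is a list's summed signal over the pool's on the same array. Scripts were tested on simulated data. Figures were drawn with matplotlib 3.10.9.

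Genes were named when they passed on line means, passed at array level with a log2 difference of at least 0.5, or had the smallest p of a role without a call. In the other lists up to 3 called genes with the largest change were named, or the 1 with the smallest p. Promoters of called genes were printed where the table held them. The genes, lists and rules were chosen with earlier results of these data known.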

Additional observations from a re-analysis of the deposited data

Results flagged for a closer look

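Of 94 groups of 4 arrays (47 genes in 2 groups), 4 held 1 array whose distance from the nearest other array was large for the group's range. For 4 independent values chance alone flags about 1 in 20 groups. Here a group holds 2 arrays of each of 2 lines, so that rate need not apply. Flagged were Aurkb at 0.35 and Pttg1 at 0.43 on array 2 of Taf5-kd line 1. In control-kd line 1 they were Kif23 at 0.36 on array 1 and Prc1 at 0.20 on array 2.

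A further 21 results differed between 2 clones of the same group (limma, 1 mean per line with a dye term, adjusted p under 0.05). The values are log2 differences of line 1 minus line 2. Between control-kd clones they were Ccnb2 0.25, Cdk1 0.21, Cdc25b 0.44, Aurka 0.22, Bub1 0.54, Bub1b 0.38, Cenpf 0.26, Ndc80 0.23, Knstrn 0.57, Ncapg 0.26, Ncaph 0.59 and Mki67 0.33, all higher in line 1. Lower in line 1 were Pttg1 at -0.95, Espl1 at -0.22 and Spc25 at -0.25. Between Taf5-kd clones Smc4 at 0.19 and Ncapg at 0.25 were higher in line 1, and Ube2c at -0.30, Kif2c at -0.19, Prc1 at -0.24 and Ect2 at -0.24 were lower.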

How the results depend on the processing

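None of the 12 mitotic genes named by rule changed direction between the groups under the alternatives run, which were not run for the named genes of the other lists. Between the groups the calls over all features numbered 1950, and 5673 at array level with the replicate block (line as random block, array number as block), 5594 at array level without it, 106 with median centring in place of loess, and 913 without chromosomes 8 and 11. The 6 mitotic calls became 21 with the replicate block, 16 without it at array level, 0 with median centring (limma, 6 at an unadjusted p under 0.05) and 3 without chromosomes 8 and 11. Leaving out 1 array gave 1407 to 2520 calls over all features and 3 to 10 mitotic ones, with 3 without control-kd replicate 1 (array 1 of line 1), 3 without Taf5-kd replicate 3 (array 1 of line 2) and 10 without Taf5-kd replicate 4 (array 2 of line 2). Leaving out a whole line gave 0 mitotic calls for each of the 4 lines, with 14 to 25 at an unadjusted p under 0.05, and 0 calls over all features except 110 without Taf5-kd line 2 (4974 to 6017 unadjusted). Such fits have a single clone in a group and fewer line means to estimate the spread, so they cannot show which clone a call depends on. Kif23 passed in 17 of 22 alternatives, Tpx2 in 16 of 22, Kif11 in 15 of 22, Birc5 in 15 of 21, Aurkb in 8 of 21 and Incenp in 7 of 22. Against the pool, 15 calls in control-kd lines became 28 with the replicate block and 5 with median centring (11 to 17 on leaving out an array), and 13 in Taf5-kd lines became 20 and 1 (10 to 14). Between clones, 15 control-kd calls became 2 with no replicate block and 1 with median centring. The 6 Taf5-kd calls became 0 under both (limma, 5 and 0 unadjusted). With the replicate block, 32.8% and 31.2% of all features passed against the pool in control-kd and Taf5-kd lines. Under the other alternatives against the pool and between clones, calls over all features were not counted. Those shifts cannot be read as particular to the mitotic genes. The cause of these shifts was not tested. In signal, 46 of 47 genes were above background on all arrays, where 90.9 to 98.7% of all mouse probes were so on each array.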
